A study of Mus musculus with 6 samples.

Results

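The genes examined here encode the enzymes of glycolysis, the tricarboxylic acid (TCA) cycle and the pentose phosphate pathway, with Hif1a, which encodes the oxygen-regulated subunit of the transcription factor HIF-1. The set was given as 38 gene symbols, and 37 of them had a row among the 14490 genes of the mRNA-seq table. Ldhb was not analysed here. The 37 genes comprised Hif1a, 16 genes of glycolysis, 6 genes at the fate of pyruvate, 10 genes of the TCA cycle with the cytosolic partners of its dehydrogenases, and 4 genes of the pentose phosphate pathway.

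Glycolysis splits glucose into pyruvate in the cytosol and yields ATP without oxygen. Pyruvate is then either reduced to lactate by lactate dehydrogenase or carried into mitochondria, where the pyruvate dehydrogenase complex turns it into acetyl-CoA for the TCA cycle, and pyruvate dehydrogenase kinases switch that complex off by phosphorylation. The pentose phosphate pathway branches off at glucose 6-phosphate and supplies NADPH and ribose. In natural killer (NK) cells, glycolysis and oxidative phosphorylation increase upon activation by cytokines and fuel proliferation and cytotoxicity.

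NK cells were sorted by flow cytometry from the spleens of C57BL/6 mice with no treatment named in the labels, 3 samples per genotype. WT mice were Mettl3fl/fl, with both copies of Mettl3 flanked by loxP sites and no Cre, and cKO mice were Ncr1Cre-Mettl3fl/fl, in which Cre driven by the Ncr1 locus deletes Mettl3 in cells that express the NK receptor NKp46. Mettl3 encodes the catalytic subunit of the complex that writes N6-methyladenosine on mRNA. As no sample carried Cre without the floxed alleles, the effects of Cre and of the loss of Mettl3 cannot be told apart. Age and sex were not given in the labels, nor whether the samples came from separate mice, so that the p-values refer to the spread between these samples. The reads on listed genes, estimated from the steps between values, numbered 55965515 to 67732352 in WT and 62995813 to 71464042 in cKO, and the first principal component, with 41.5% of the variance, separated the genotypes. Values are normalized counts, that is reads per gene divided by a size factor of the sample, and log2 fold changes compare cKO with WT on the log2(normalized count + 1) scale with the standard error (SE). A gene passed the test when its limma p-value stayed below 0.05 after Benjamini-Hochberg adjustment across the 14490 genes. Values per sample are given in the order of samples 1, 2 and 3. Levels of different genes are compared only per length, as normalized counts per kilobase of exon scaled to a sum of 1000000 over the listed genes of known exon length, with exon lengths from GENCODE for GRCm38.

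Mettl3 itself had 1303, 1258 and 1192 normalized counts in WT against 297, 299 and 405 in cKO. Its log2 fold change was −1.92 (SE 0.10), with an adjusted p of 2.32e-14, and every cKO sample lay below every WT sample. The remaining reads were not assigned to parts of the gene, so intact and deleted transcripts were not distinguished.

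Most of the pathway genes differed little between the genotypes in size, and 21 of the 37 passed the test. In cKO, 15 genes were lower and 6 were higher, and 16 did not pass. The lower genes included Hif1a, the aldolase gene Aldoa, the malate dehydrogenase genes Mdh1 and Mdh2, the lactate dehydrogenase gene Ldha and the transaldolase gene Taldo1, and the higher genes included the kinase gene Pdk1, Pgam1, Hk2 and Pfkfb3. The changes were small, and at the extremes Aldoa fell by 20.7% and Pdk1 rose by 24.5%. In these bulk samples, fewer cells that express a gene and less RNA of it per cell cannot be told apart.

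The 21 genes that passed were 56.8% of the 37, against 36.6% of all genes. The lower genes were 40.5% of the 37, against 18.8% of all genes, and the higher genes were 16.2%, against 17.8% of all genes. Among all genes, highly expressed ones passed more often. Of the 11160 genes with a mean at least as high as the lowest mean of the 37, 93.5 normalized counts, 45.0% passed. At or above the median of their means, 4919 normalized counts, 13 of 19 pathway genes passed, or 68.4%, against 58.3% of the 2711 genes there. Both levels were chosen after the values were seen. In 22 of the 37 genes, or 59.5%, the 3 samples of one genotype all lay on one side of the 3 of the other, 16 of them lower and 6 higher in cKO. Among all genes this share was 45.7%.

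The log2 fold changes of the 37 genes ranged from −0.33 to 0.32. Their median was −0.10, against 0.0014 over all genes, and their median size regardless of sign was 0.16, against 0.17. Without WT sample 1 the median of the pathway genes was −0.038. None of the 37 genes met the rule of the study for differential expression, an unadjusted p below 0.05 with a log2 fold change beyond 1 in either direction, which 1.75% of all genes met. In 36 of the 37 genes, the 95% confidence interval reached no further than 0.5 from 0 on the log2 scale, and the exception was Aldoc, which had the lowest level per length. When every sample was scaled to the same total instead of by the authors' size factors, 10 pathway genes were higher and 14 were lower in cKO, as Hk1, Gpi1, Idh3a and Sucla2 then passed and Pgk1 did not. Summed over the 37 genes, the pathway took 0.436% ± 0.0073 of all normalized counts in WT against 0.428% ± 0.0029 in cKO (SD, n = 3 each). The WT and cKO samples overlapped in this share, which divides by the total of each sample. That total was 66099619.2 to 66657947.2 normalized counts in WT and lower in every cKO sample, at 63610357.5 to 64941537.6. The log2 fold changes do not divide by it, so cKO shares lie slightly higher than on that scale.

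**Figure D1:**
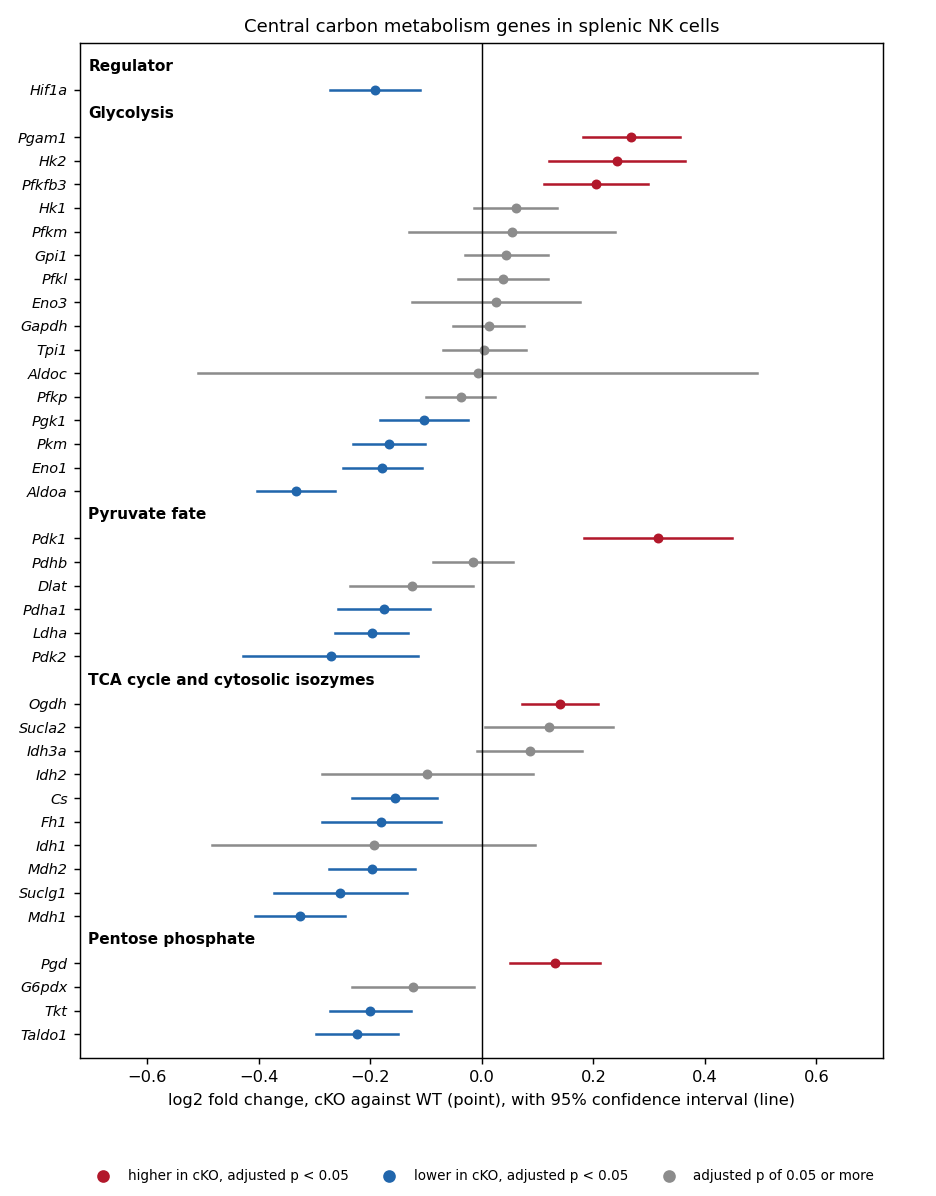
Log2 fold change of cKO against WT for the 37 pathway genes, grouped by role and ordered within each role, with points for the estimate and lines for the 95% confidence interval over 3 samples per genotype. The 15 genes lower in cKO (blue) occur in every role, and the 6 higher genes (red) are Pgam1, Hk2, Pfkfb3, Pdk1, Ogdh and Pgd.

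Hif1a was lower in cKO. Its protein pairs with ARNT to form HIF-1, which activates many genes of glycolysis when oxygen is scarce or growth signals are strong. The gene lies at chr12:73901375-73947530 on the plus strand of GRCm38. Its values were 5578, 5242 and 5155 normalized counts in WT against 4619, 4684 and 4682 in cKO. The cKO samples were close to each other and all lay below the lowest WT sample. The transcript fell by 12.4%, a log2 fold change of −0.19 (SE 0.04), with an adjusted p of 0.00033, and the call was kept in all 14 alternative analyses.

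HIF-1 recognizes a short core in DNA, most often ACGTG, and the longer sequence CACGTG, which contains that core, is the E-box bound by MYC with MAX and by other basic helix-loop-helix factors. Both were searched on either strand in the 250 bases before each start site of RefSeq (GRCm38.p6). ACGTG occurred in 36.8% of the 57 windows of pathway genes and in 16.6% of the 32851 windows of all RefSeq genes. For CACGTG, these shares were 14% and 6.02%, respectively. Counted by gene, at least 1 window held ACGTG in 13 of the 36 pathway genes with an entry, or 36.1%. Among the 27025 genes of RefSeq this share was 18.5%. This background was not limited to the listed genes, which are all genes in the other comparisons. Whether the pathway genes hold the core more often than listed genes in general was not tested. The 13 pathway genes were Hif1a, Hk2, Pfkm, Pfkfb3, Aldoa, Pgk1, Pgam1, Pkm, Ldha, Pdk2, Pdhb, Ogdh and Mdh1. The core was present at 4 of the 6 genes that were higher in cKO, at 7 of the 15 that were lower and at 2 of the 15 that did not pass. The motif thus lay before genes that went in opposite directions. A match of letters is no evidence of binding, and no test was made.

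The windows of Hif1a and of the genes with the largest changes in each direction are shown, because Aldoa and Pdk2 were lower and Pgam1 was higher with a core in the window, whereas Pdk1 was higher with none in either of its 2 windows. Genes whose window overlapped annotated exons by more than 30 bases were passed over, and where a gene had several start sites a window with the core was taken. Each sequence reads 5′ to 3′ on the strand of the gene, with ACGTG, or CACGT for the other strand, in capitals. CACGTG in capitals is a core on both strands.
Hif1a, chr12:73907617-73907866, plus strand: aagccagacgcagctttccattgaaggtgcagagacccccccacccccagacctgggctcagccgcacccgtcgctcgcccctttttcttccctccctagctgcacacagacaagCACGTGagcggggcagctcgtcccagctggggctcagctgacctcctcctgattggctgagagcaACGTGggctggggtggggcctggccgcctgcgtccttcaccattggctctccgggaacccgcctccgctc
Aldoa, chr7:126799255-126799504, minus strand: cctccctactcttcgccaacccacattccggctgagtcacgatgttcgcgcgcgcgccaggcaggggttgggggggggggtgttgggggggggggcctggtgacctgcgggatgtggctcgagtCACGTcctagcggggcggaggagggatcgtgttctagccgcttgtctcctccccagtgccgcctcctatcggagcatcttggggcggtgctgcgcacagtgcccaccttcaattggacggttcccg
Pdk2, chr11:95041372-95041621, minus strand: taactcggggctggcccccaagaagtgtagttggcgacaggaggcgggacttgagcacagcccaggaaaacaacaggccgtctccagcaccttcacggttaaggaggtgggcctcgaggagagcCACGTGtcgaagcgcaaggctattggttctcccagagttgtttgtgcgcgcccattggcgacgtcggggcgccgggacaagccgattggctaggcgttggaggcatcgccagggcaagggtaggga
Pgam1, chr19:41911621-41911870, plus strand: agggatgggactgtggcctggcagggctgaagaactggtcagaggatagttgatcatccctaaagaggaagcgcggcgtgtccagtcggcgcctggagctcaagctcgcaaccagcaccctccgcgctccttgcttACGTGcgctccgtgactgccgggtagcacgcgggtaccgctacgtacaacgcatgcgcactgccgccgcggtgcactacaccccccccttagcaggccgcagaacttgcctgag
Pdk1, chr2:71872974-71873223, plus strand: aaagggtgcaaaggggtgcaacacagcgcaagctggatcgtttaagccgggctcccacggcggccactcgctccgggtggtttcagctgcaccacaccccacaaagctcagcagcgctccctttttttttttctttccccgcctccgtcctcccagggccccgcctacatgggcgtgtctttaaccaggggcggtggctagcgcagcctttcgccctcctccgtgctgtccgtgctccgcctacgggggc

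In glycolysis, the direction differed from step to step. Of 16 genes, 3 were higher and 4 were lower in cKO, and 9 did not pass. The higher genes were 18.8% of the 16, against 17.8% of all genes, and the lower genes were 25.0%, against 18.8%. Together 43.8% passed, near the 36.6% of all genes and the 45.0% of those at or above the lowest mean of the 37. The lower genes were Aldoa, Eno1, Pkm and Pgk1, which encode aldolase A, enolase 1, pyruvate kinase M and phosphoglycerate kinase 1. The higher genes were Pgam1, Hk2 and Pfkfb3, which encode phosphoglycerate mutase 1, hexokinase 2 and a kinase that makes fructose 2,6-bisphosphate, the activator of phosphofructokinase. Pgam1 was higher while Pgk1 before it and Eno1 after it were lower, although the call of Pgk1 was narrow, and the successive steps of Eno1 and Pkm were both lower.

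Aldoa, which splits fructose 1,6-bisphosphate, showed the largest fall among all 37 genes. The gene lies at chr7:126795234-126800751 on the minus strand, and its promoter window with a single core is shown above. Its values were 13511, 13122 and 12808 normalized counts in WT against 10187, 10794 and 10316 in cKO. Every cKO sample lay below the lowest WT sample by more than the range within either genotype. On the log2 scale cKO differed from WT by −0.33 (SE 0.03), with an adjusted p of 1.29e-08.

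Pgam1, which moves the phosphate group of phosphoglycerate, showed the largest rise in glycolysis. The gene lies at chr19:41911923-41918660 on the plus strand. Its values were 3711, 3574 and 3377 normalized counts in WT against 4333, 4201 and 4296 in cKO. All cKO samples lay above all WT samples, and the log2 fold change was 0.27 (SE 0.04) with an adjusted p of 1.34e-05.

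Hk2 encodes the inducible hexokinase that traps glucose in the cell, and it had a lower level per length than Hk1, 11.1 ± 0.53 against 42.1 ± 1.6 in WT (SD, n = 3 each). The gene lies at chr6:82725025-82774454 on the minus strand. Its values were 1387, 1478 and 1314 normalized counts in WT against 1557, 1681 and 1706 in cKO. The genotypes did not overlap, although the lowest cKO sample was close to the highest WT sample. Its change in log2 terms was 0.24 (SE 0.06), with an adjusted p of 0.00188.

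Pfkfb3 lies at chr2:11471433-11554077 on the minus strand and had 2667, 2605 and 2496 normalized counts in WT against 3059, 2915 and 2975 in cKO. Again no cKO sample fell within the range of WT. The log2 fold change was 0.20 (SE 0.05), with an adjusted p of 0.000735. The calls of Aldoa, Pgam1, Hk2 and Pfkfb3 were kept in all 14 alternatives.

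Gapdh, which encodes glyceraldehyde 3-phosphate dehydrogenase and is widely used as a reference gene, had the highest level per length of all 37 genes. It lies at chr6:125161715-125166467 on the minus strand and had 33947, 34826 and 33276 normalized counts in WT against 34374, 35437 and 33123 in cKO. The samples of both genotypes were interleaved. On the log2 scale cKO differed from WT by 0.01 (SE 0.03), with a 95% confidence interval from −0.052 to 0.076 and an adjusted p of 0.803, and its sign turned in 4 of the 14 alternatives.

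Among the other lower genes of glycolysis, Eno1 had a log2 fold change of −0.18 (SE 0.03) with an adjusted p of 0.000175, and Pkm had −0.17 (SE 0.03) with an adjusted p of 0.000146. Pgk1 passed only narrowly, with a log2 fold change of −0.10 (SE 0.04) and an adjusted p of 0.037. Without WT sample 1, WT sample 2, cKO sample 1 or cKO sample 3, the adjusted p of Pgk1 was 0.14, 0.0758, 0.144 and 0.126, respectively, and with equal totals its log2 fold change was −0.054 with an adjusted p of 0.262. The genes that did not pass encode the constitutive hexokinase (Hk1, 0.06), glucose phosphate isomerase (Gpi1, 0.04), the 3 phosphofructokinase subunits (Pfkl, 0.04; Pfkm, 0.05; Pfkp, −0.04), aldolase C (Aldoc, −0.01), triose phosphate isomerase (Tpi1, 0.00), glyceraldehyde 3-phosphate dehydrogenase (Gapdh, 0.01) and muscle enolase (Eno3, 0.03), with log2 fold changes in brackets. Their samples overlapped between genotypes in every case, but these genes were sorted by the test on the same values. Gpi1 passed without WT sample 1, with an adjusted p of 0.0498. GENCODE names 2 pseudogenes each after Aldoa, Gapdh, Pgk1, Pgam1 and Ldha, and 1 of those of Pgam1 had a row of its own. Pseudogenes under other names were not searched for, so other genes may have such copies and these genes more. The handling of reads that match several places was not stated. The counts of genes with such copies are uncertain to that extent.

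**Figure D2:**
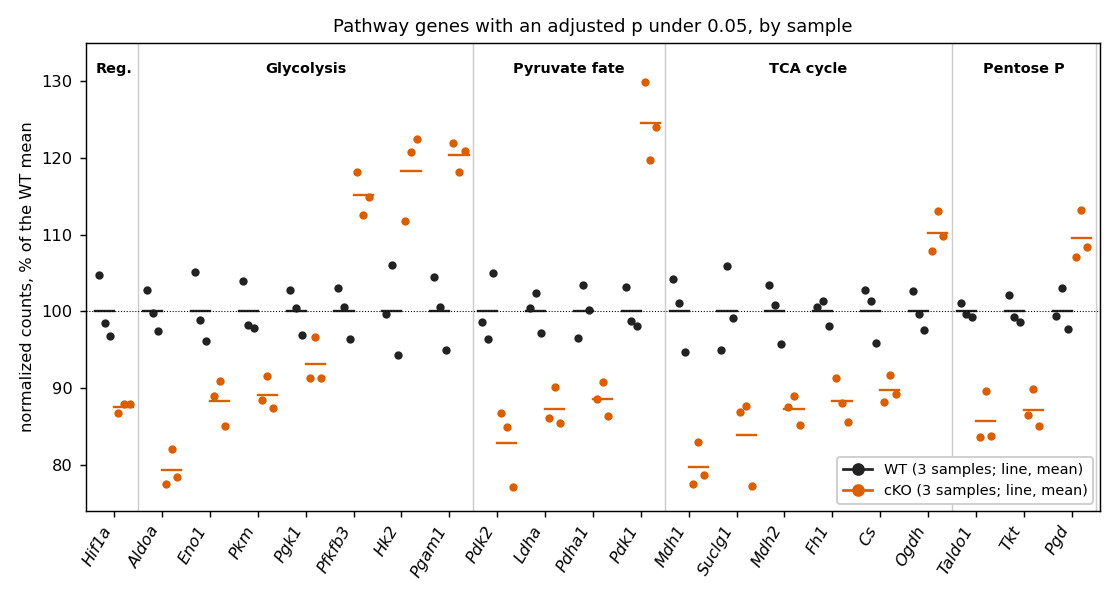
Normalized counts of the 21 pathway genes that passed the test, as a percentage of the WT mean of each gene, with 1 point per sample and a line at the mean of each genotype (WT black, cKO orange; the vertical axis does not start at 0). The samples of WT and cKO are separate for each of the 21 genes, against 45.7% of all genes. The 21 were picked by the test on these same values, so their separation is no added evidence. Pgk1, which fell by 6.93%, changed least among the 21.

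At the fate of pyruvate, the kinase genes Pdk1 and Pdk2 went in opposite directions. Their products share a role, the phosphorylation and shut-down of the pyruvate dehydrogenase complex. Of the 6 genes, 1 was higher in cKO (Pdk1), 3 were lower (Pdk2, Ldha and Pdha1) and 2 did not pass. Together 66.7% passed, against 36.6% of all genes.

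Pdk1, a classical target of HIF-1 in other cells, lies at chr2:71873224-71903858 on the plus strand and showed the largest rise of all 37 genes. Its values were 965, 923 and 917 normalized counts in WT against 1215, 1120 and 1160 in cKO. The lowest cKO sample lay above the highest WT sample by more than the whole range of WT. The transcript rose by 24.5%, a log2 fold change of 0.32 (SE 0.06), with an adjusted p of 0.000331.

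Pdk2 lies at chr11:95026258-95041354 on the minus strand and had 827, 809 and 881 normalized counts in WT against 728, 712 and 647 in cKO. Each cKO sample was lower than each WT sample. Its change in log2 terms was −0.27 (SE 0.08), with an adjusted p of 0.00633 and the widest interval among the genes that passed, from −0.43 to −0.11.

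Ldha, which encodes the subunit of lactate dehydrogenase that favours lactate formation, was the second most abundant pathway gene per length. It lies at chr7:46841475-46855627 on the plus strand and had 22682, 23122 and 21926 normalized counts in WT against 19450, 20336 and 19300.0 in cKO. The genotypes did not overlap. The log2 fold change was −0.20 (SE 0.03), with an adjusted p of 1.84e-05.

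Pdha1, the catalytic E1 alpha subunit of the pyruvate dehydrogenase complex and the target of the kinases, lies at chrX:160122209-160138413 on the minus strand and had 4510, 4834 and 4682 normalized counts in WT against 4141, 4242 and 4038 in cKO. It was lower in all cKO samples, with a log2 fold change of −0.17 (SE 0.04) and an adjusted p of 0.00109. Of the other subunits in the set of 37, neither passed, Dlat (E2) with −0.13 (SE 0.05) and an adjusted p of 0.0682, and Pdhb (E1 beta) with −0.02 (SE 0.03) and an adjusted p of 0.761. Of a wider list of genes of these pathways, Dld (E3) was lower, at −0.12 (SE 0.04) with an adjusted p of 0.0213, but it did not pass without WT sample 1 (0.092), cKO sample 1 (0.118) or cKO sample 3 (0.0899), and Pdhx (the E3-binding protein) did not pass, at −0.09 (SE 0.10) with an adjusted p of 0.516. Dlat passed without WT sample 3 (adjusted p of 0.0208) or without cKO sample 1 (0.049). The calls of Pdk1, Pdk2, Ldha and Pdha1 were kept in all 14 alternatives.

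In the TCA cycle, 5 of 10 genes were lower in cKO, 1 was higher and 4 did not pass. The lower genes span the cycle from citrate synthase (Cs) through a subunit of succinyl-CoA ligase (Suclg1) and fumarase (Fh1) to the malate dehydrogenases, mitochondrial (Mdh2) and cytosolic (Mdh1). The higher gene was Ogdh, which encodes the E1 subunit of the 2-oxoglutarate dehydrogenase complex.

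Mdh1 takes part in the malate-aspartate shuttle, which carries reducing equivalents into mitochondria, and had the highest level per length of the group. It lies at chr11:21556787-21572367 on the minus strand and had 8065, 7827 and 7327 normalized counts in WT against 5998, 6421 and 6093 in cKO. The gap between the genotypes was wider than the range within either of them. The transcript fell by 20.2%, a log2 fold change of −0.33 (SE 0.04), with an adjusted p of 2.48e-07.

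Suclg1 encodes the alpha subunit that both forms of succinyl-CoA ligase share, and lies at chr6:73248382-73276911 on the plus strand. Its values were 1878, 2096 and 1963 normalized counts in WT against 1720, 1734 and 1528 in cKO. No cKO sample reached the lowest WT sample. On the log2 scale cKO differed from WT by −0.25 (SE 0.06), with an adjusted p of 0.00103. Sucla2, the beta subunit of the ADP-forming ligase, had a log2 fold change of the other sign, 0.12 (SE 0.06), which did not pass, with an adjusted p of 0.0945. It passed without cKO sample 1 (adjusted p of 0.0334), with equal totals (0.0171) and after correction for GC content and length (0.0388).

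Mdh2 lies at chr5:135778480-135790398 on the plus strand and had 7158, 6983 and 6634 normalized counts in WT against 6063, 6160 and 5902 in cKO. The cKO samples were the 3 lowest. Its change in log2 terms was −0.20 (SE 0.04), with an adjusted p of 0.000148.

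Fh1 lies at chr1:175600374-175625635 on the minus strand and had 1890, 1905 and 1843 normalized counts in WT against 1715, 1654 and 1608 in cKO. Its samples also separated by genotype. The log2 fold change was −0.18 (SE 0.05), with an adjusted p of 0.00735. Cs had −0.16 (SE 0.04) with an adjusted p of 0.00147.

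Ogdh, at chr11:6291633-6356642 on the plus strand, had 12255, 11897 and 11644 normalized counts in WT against 12870, 13489 and 13101 in cKO. It was higher in each cKO sample than in each WT sample, with a log2 fold change of 0.14 (SE 0.03) and an adjusted p of 0.00129. The isocitrate dehydrogenase genes did not pass, namely Idh3a of the mitochondrial NAD-dependent enzyme, at 0.09 (SE 0.05), the mitochondrial Idh2, at −0.10 (SE 0.09), and the cytosolic Idh1, at −0.19 (SE 0.14), in log2 fold change. Idh1 and Idh2 were the least expressed genes of the group per length, and their samples overlapped. The calls of Cs, Suclg1, Fh1, Mdh1, Mdh2 and Ogdh were kept in all 14 alternatives.

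In the pentose phosphate pathway, the transferases of the non-oxidative branch, which exchange sugar carbons, were lower in cKO, and the oxidative branch was mixed. Taldo1 (transaldolase) and Tkt (transketolase) were lower, Pgd (6-phosphogluconate dehydrogenase) was higher and G6pdx (glucose 6-phosphate dehydrogenase, the entry enzyme) did not pass. Of these 4 genes 75.0% passed, against 36.6% of all genes. The isomerase Rpia and the epimerase Rpe of the non-oxidative branch, also from the wider list, did not pass, at −0.10 (SE 0.05) and −0.05 (SE 0.06) in log2 fold change with adjusted p of 0.114 and 0.595.

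Taldo1, the most abundant of the 4 per length, lies at chr7:141392199-141402968 on the plus strand and had 8167, 8058 and 8028 normalized counts in WT against 6762, 7243 and 6774 in cKO. The WT samples were close to each other and every cKO sample lay far below them. On the log2 scale cKO differed from WT by −0.22 (SE 0.04), with an adjusted p of 1.79e-05.

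Tkt lies at chr14:30548359-30574720 on the plus strand and had 8571, 8322 and 8275 normalized counts in WT against 7250, 7534 and 7131 in cKO. Here too, the genotypes were separate. Its change in log2 terms was −0.20 (SE 0.04), with an adjusted p of 5.39e-05.

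Pgd lies at chr4:149149991-149166771 on the minus strand and had 4663, 4838 and 4584 normalized counts in WT against 5030, 5312 and 5088 in cKO. The cKO samples were the 3 highest, and the log2 fold change was 0.13 (SE 0.04) with an adjusted p of 0.00912. Without cKO sample 2, the highest of them, the adjusted p was 0.054. G6pdx, on chromosome X, had 2026, 1874 and 1875 normalized counts in WT against 1696, 1820 and 1786 in cKO. Its cKO samples all lay below its WT samples, but with a log2 fold change of −0.12 (SE 0.05) the adjusted p was 0.0735.

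Genes of glycolysis and lactate formation headed the order of levels per length. In WT, the level per length ran from 1.35 ± 0.29 (SD, n = 3) for Aldoc to 392 ± 4.5 (SD, n = 3) for Gapdh. Ldha (325 ± 5.4), Pkm (271 ± 10.1), Aldoa (215 ± 5.6) and Eno1 (202 ± 9.4) followed Gapdh in the level per length (SD, n = 3 each). Of these neighbours in the order, only Aldoa and Eno1 had overlapping ranges of mean ± SD. Below them, Taldo1 (178 ± 2.5), Mdh1 (144 ± 6.3) and Tpi1 (129 ± 3.7) were the next in the level per length, with separate ranges. From Tpi1 through Pdhb (121 ± 3.7) and Pgk1 (119 ± 3.1) to Gpi1 (116 ± 7.2), each gene overlapped with the next in the range of the level per length. Hif1a was in the middle of the order, at 43.1 ± 1.9 (SD, n = 3). In cKO the level per length of Aldoa was 178 ± 3.8 and lay below that of Eno1, at 186 ± 2.9 (SD, n = 3 each), so that these neighbours changed places.

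**Figure D3:**
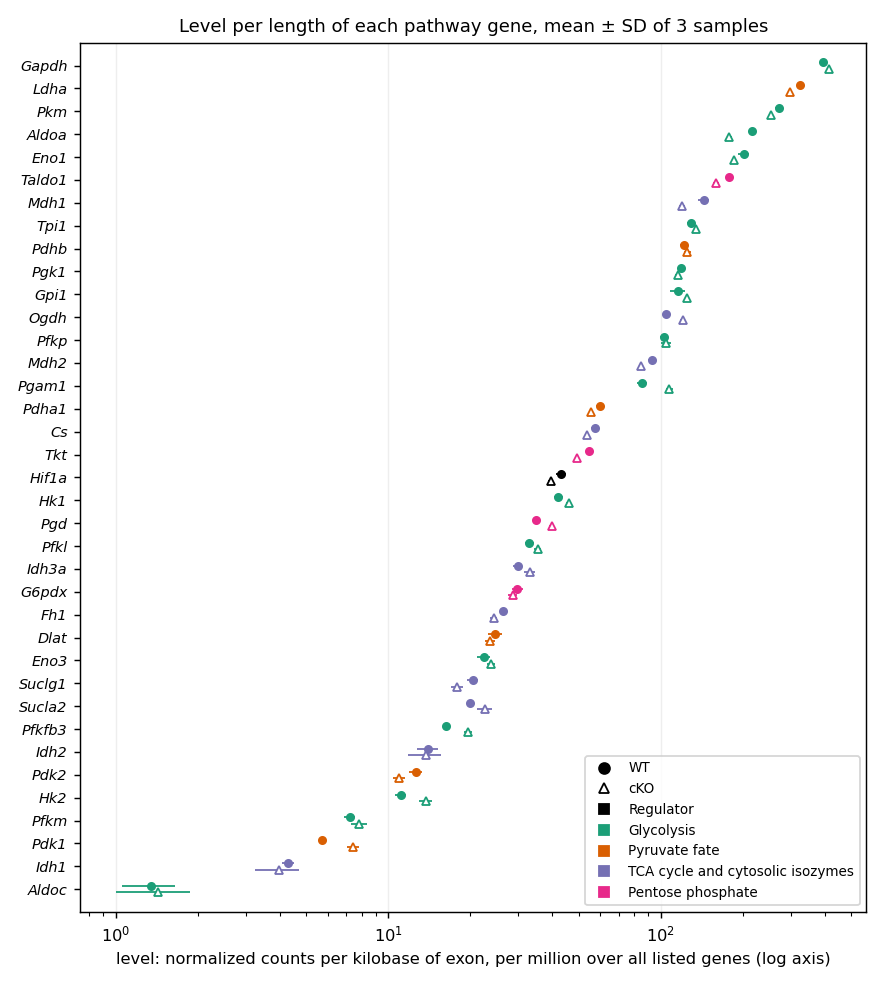
Level per length of the 37 pathway genes in WT (filled circles) and cKO (open triangles), as normalized counts per kilobase of exon with the counts of all listed genes scaled to 1000000, on a log axis, with bars for the SD of 3 samples and colours for the role. Because this level divides by the total of each sample, which was 66099619.2 to 66657947.2 normalized counts in WT and 63610357.5 to 64941537.6 in cKO, cKO levels lie slightly higher here than in the log2 fold changes.

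Where a step can be carried by alternative isozymes, their ratio within a sample is free of the scaling between samples. The difference in the ratio was largest for the pyruvate dehydrogenase kinases, with more Pdk1 relative to Pdk2 in cKO. The log2 ratio of Pdk1 to Pdk2 in normalized counts was 0.22, 0.19 and 0.058 in WT against 0.74, 0.65 and 0.84 in cKO, a difference of 0.59. In levels per length, Pdk1 stood at 0.454 ± 0.027 of Pdk2 in WT and at 0.682 ± 0.045 in cKO (SD, n = 3 each). Per length, Pdk2 was the more abundant of the pair in both genotypes.

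The ratio of Hk1 to Hk2 was lower in every cKO sample than in every WT sample. Per length, Hk1 was 3.79 ± 0.27 times as abundant as Hk2 in WT and 3.34 ± 0.12 times in cKO (SD, n = 3 each), and the log2 ratio in normalized counts differed by −0.18. The log2 ratio of Mdh1 to Mdh2 was 0.16 ± 0.015 in WT and 0.030 ± 0.040 in cKO (SD, n = 3 each), a difference of −0.13. For Eno1 against Eno3 the log2 ratio differed by −0.20, for Pfkl against Pfkp by 0.076 and for Pfkm against Pfkp by 0.092. In these 6 pairs the samples did not overlap between genotypes. Pfkl against Pfkp was nearly tied, at −2.62075 in WT sample 1 and −2.62047 in cKO sample 3. Gaps were also narrow for Pfkm against Pfkp (−5.790 in WT sample 3, −5.782 in cKO sample 2). The same held for Hk1 against Hk2 (2.314 in WT sample 2, 2.302 in cKO sample 1). Each of the 6 pairs had an exact permutation p of 0.1 (two-sided), the smallest that 3 against 3 samples allow. After Benjamini-Hochberg adjustment over the 8 pairs it was 0.133. For Aldoa against Aldoc (difference −0.33) and Idh1 against Idh2 (−0.096) the samples overlapped, with an exact permutation p of 0.4 each. No pair could pass 0.05 in this design.

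A wider list of 80 further genes of the same pathways, their transporters, the regulators of HIF and MYC and targets of HIF-1 elsewhere also held more lower than higher genes. Of these, 68 had values. In cKO, 21 were lower (30.9%, against 18.8% of all genes) and 8 were higher (11.8%, against 17.8%). Together 42.6% passed, against the 36.6% of all genes given above. With equal totals, 14 were lower and 13 were higher, and among those that no longer passed as lower genes were Pdk3, Dld, Sdhd, Pgls, Bnip3l and P4ha1, with adjusted p between 0.0709 and 0.217. The median log2 fold change of the 68 genes was −0.08.

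Of the 6 listed transporters of hexoses or of lactate and pyruvate, 4 were lower in cKO, against 18.8% of all genes, and 2 did not pass. Slc2a6, a hexose transporter of lysosomal membranes, had 8980, 9198 and 9657 normalized counts in WT against 4562, 4869 and 4604 in cKO. It fell by 49.6% in cKO, with a log2 fold change of −0.99 (SE 0.04) and an adjusted p of 1.07e-16, the largest change in size among the genes of either list with a mean of at least 500 normalized counts. Slc16a1, the lactate and pyruvate carrier MCT1, had 3848, 3960 and 3635 normalized counts in WT against 2829, 2816 and 2799 in cKO. The log2 fold change of Slc16a1 was −0.44 (SE 0.04), with an adjusted p of 8.71e-09. The main glucose transporters Slc2a3 and Slc2a1, named after their values were seen, were lower as well. Slc2a3 had a log2 fold change of −0.26 (SE 0.03) and an adjusted p of 2.56e-07, and Slc2a1 had −0.15 (SE 0.03) and 0.000599. The lactate exporter Slc16a3 (MCT4) and the intracellular hexose transporter Slc2a8 did not pass, at −0.01 (SE 0.10) and −0.14 (SE 0.09) in log2 fold change with adjusted p of 0.934 and 0.255, and their samples overlapped. Pgm2 and Bpgm, of phosphopentose and bisphosphoglycerate metabolism, were higher, at 0.26 (SE 0.06) and 0.25 (SE 0.07) in log2 fold change with adjusted p of 0.00182 and 0.00327.

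At the mitochondrial gate for pyruvate, both subunits of the pyruvate carrier were lower, Mpc1 with a log2 fold change of −0.26 (SE 0.07) and an adjusted p of 0.00421, and Mpc2 with −0.27 (SE 0.07) and 0.00231. Mpc1 missed the threshold without WT sample 3, with an adjusted p of 0.0505. The kinase gene Pdk3 was lower, at −0.22 (SE 0.08), and the genes of the opposing phosphatases, Pdp1 and Pdp2, were higher, at 0.18 (SE 0.06) and 0.22 (SE 0.07) in log2 fold change. These 3 calls were narrow (adjusted p of 0.0277, 0.0284 and 0.0225). Pdk3 did not pass without WT sample 1 (0.0746), WT sample 2 (0.0655), cKO sample 1 (0.0879) or cKO sample 2 (0.0629). Pdp1 did not pass without WT sample 2 (0.0944), WT sample 3 (0.0621) or cKO sample 2 (0.142), and Pdp2 without WT sample 1 (0.0645), WT sample 2 (0.0754) or cKO sample 1 (0.122).

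In the TCA cycle, succinate dehydrogenase, which is also complex II of the respiratory chain, is encoded by 4 genes. All 4 of its subunit genes were lower in cKO, with log2 fold changes of −0.25 (SE 0.04) for Sdha, −0.30 (SE 0.04) for Sdhb, −0.37 (SE 0.05) for Sdhc and −0.11 (SE 0.04) for Sdhd. Sdhb had 5216, 5536 and 5250 normalized counts in WT against 4354, 4305 and 4339 in cKO, with both genotypes tight and far apart. The adjusted p were 5.64e-06, 6.60e-07, 1.51e-06 and 0.033, and Sdhd, named to complete the complex, did not pass without WT sample 1 (0.0745), WT sample 2 (0.124), cKO sample 1 (0.0625) or cKO sample 3 (0.129) or with equal totals (0.217). Pck2, the mitochondrial phosphoenolpyruvate carboxykinase, was higher, with a log2 fold change of 0.20 (SE 0.06) and an adjusted p of 0.012, but did not pass without cKO sample 2 (0.0774).

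In the pentose phosphate pathway, Pgls, the lactonase of the oxidative branch, was lower, with a log2 fold change of −0.15 (SE 0.05) and an adjusted p of 0.0163, and H6pd, the glucose 6-phosphate dehydrogenase of the endoplasmic reticulum, was higher, with 0.19 (SE 0.05) and 0.00371. Pgls did not pass without WT sample 2 (0.0599), WT sample 3 (0.0647) or cKO sample 1 (0.0814).

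Among the regulators, the partner of Hif1a was lower too. Arnt had a log2 fold change of −0.18 (SE 0.05), with an adjusted p of 0.00261, although 1 of its cKO samples lay just above its lowest WT sample. Hif1an, which encodes the asparaginyl hydroxylase that blocks HIF-1 alpha, was lower, with a log2 fold change of −0.19 (SE 0.04) and an adjusted p of 0.000289. Vhl, whose product marks HIF-1 alpha for degradation, passed narrowly in the higher direction, at 0.12 (SE 0.05) with an adjusted p of 0.0482, but without WT sample 1, 2 or 3 or cKO sample 2 or 3 its adjusted p lay between 0.0642 and 0.163. Myc did not pass, with a log2 fold change of −0.08 (SE 0.03) and an adjusted p of 0.0885.

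Of the 8 targets of HIF-1 outside these pathways, 3 were lower (37.5%, against 18.8% of all genes) and 1 was higher (12.5%, against 17.8%). As a set they had no common direction, with 4 log2 fold changes above 0, 4 below 0 and a median of −0.02. Vegfa, which encodes a vascular growth factor, had 32426, 31704 and 30448 normalized counts in WT against 25018, 25822 and 25474 in cKO. The genotypes were widely separate, with a log2 fold change of −0.31 (SE 0.03) and an adjusted p of 9.53e-09. Bnip3l and P4ha1 were lower, at −0.13 (SE 0.03) and −0.15 (SE 0.05), and Ddit4 was higher, at 0.11 (SE 0.04), with adjusted p of 0.00419, 0.0205 and 0.0249. P4ha1 and Ddit4 did not pass without WT sample 1 (0.104 and 0.144) or cKO sample 1 (0.0682 and 0.206).

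**Figure D4:**
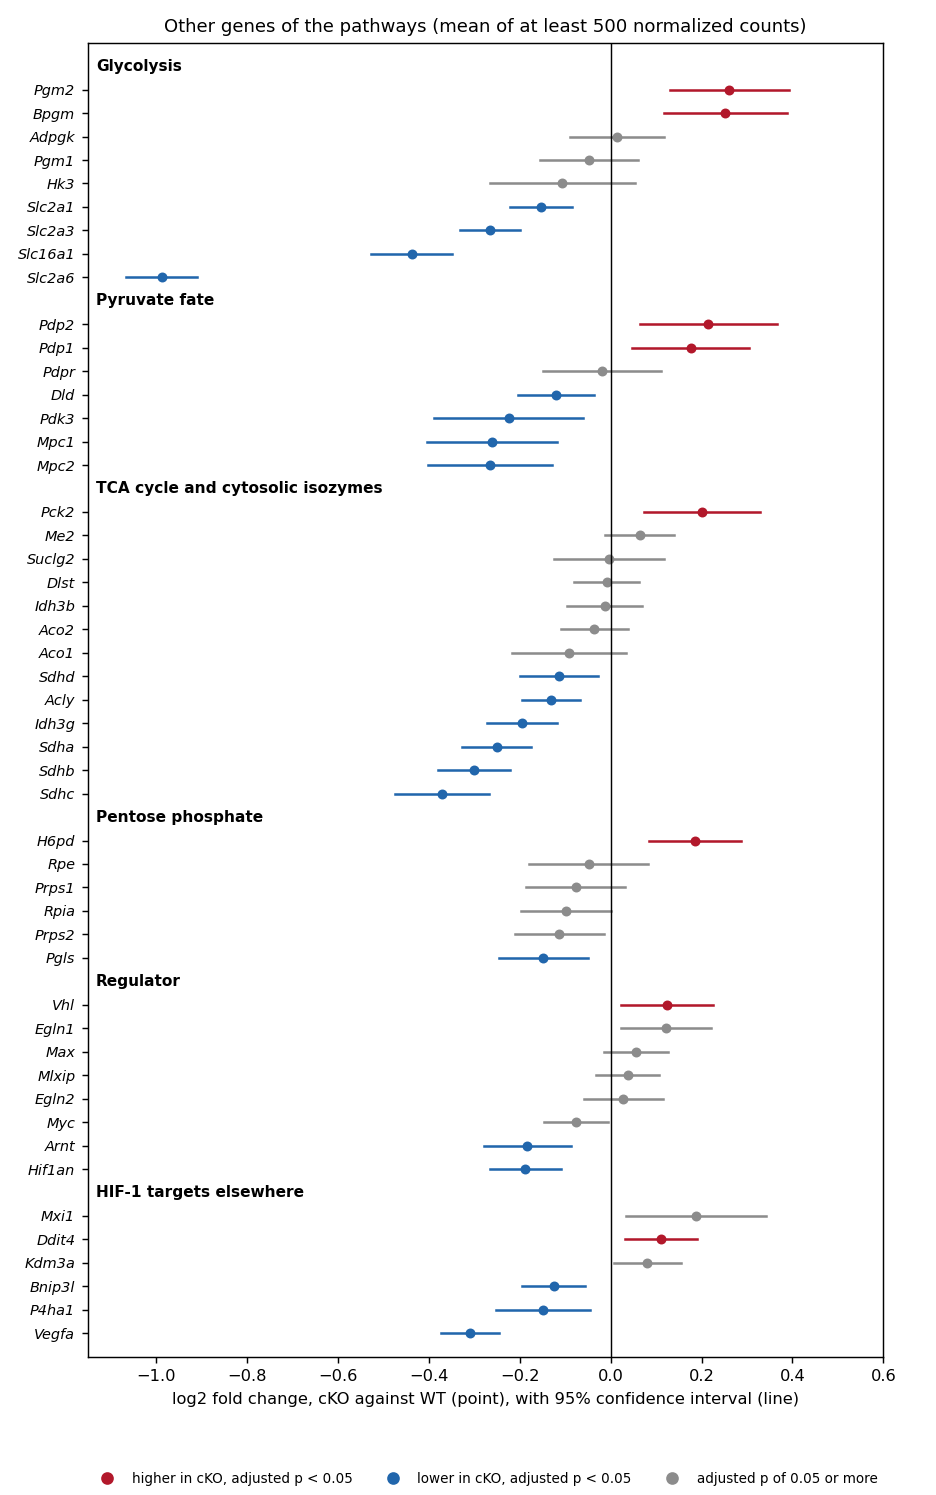
Log2 fold change of cKO against WT with its 95% confidence interval for the genes of the wider list with a mean of at least 500 normalized counts over WT and cKO, grouped by role; colours are as for the pathway genes. Slc2a6 at −0.99 stands apart, the 4 Sdh genes are all lower in cKO, and the regulators lie on both sides of 0.

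Genes that mark NK cells were abundant in every sample. The 9 markers summed to 1.17% to 1.20% of all normalized counts in WT and 1.12% to 1.16% in cKO. Of them, 6 (66.7%) were lower in cKO, against 18.8% of all genes, and 1 (11.1%) was higher, against 17.8%. Ncr1, the locus that drives Cre, had a log2 fold change of −0.40 (SE 0.03). Of the 6 B-cell markers 5 (83.3%) were higher in cKO, against 17.8% of all genes. The sum of the 6 was 0.0131% to 0.0142% in WT and 0.0156% to 0.0164% in cKO. T-cell markers (5 listed, 1 lower) summed to 0.00261% to 0.00288% in WT and 0.0021% to 0.00239% in cKO, and myeloid markers (5 listed, 3 higher and 1 lower) to 0.0106% to 0.0114% and 0.011% to 0.012%. None of the 3 erythroid markers passed. No listed marker of any type was at 0 in all samples, but this held for every listed gene and says nothing about purity. Cd8b1, S100a8 and S100a9 were not analysed here. The part of these cells in the results for the pathway genes was not tested.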

How the data were processed

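mRNA-seq of sorted splenic NK cells was analysed, with genotypes and replicate numbers taken from the sample labels. Per the submitters' processing notes, paired-end reads were aligned to GRCm38 with HISAT2 (2.0.5) and counted per gene with featureCounts (1.5.0-p3). The values the authors deposited are a signal, namely counts per gene that were divided by a size factor per sample from DESeq2 (1.16.1). The methods of the study name later versions of HISAT2 and DESeq2, and which were used for this table is not settled here. The deposited table also holds the authors' mean, log2 fold changes, standard errors, test score, p-value and adjusted p-value, which were not used here. The library kit named in the labels is not the directional one, so reads of overlapping antisense genes cannot be told apart. The step between values was taken as the worth of 1 read in each sample. All values were whole multiples of it within 0.001 of a step, but in 4 of the 6 columns the smallest value was above 1 step, so the reads on listed genes are estimates.

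Values were taken as log2(value + 1). No gene was removed by requiring 1 normalized count or more in 3 or more samples. The genotypes were compared by limma 3.58.1 (R 4.3.3), fitting the trend of variance with level. The tests were two-sided, and all 14490 genes entered the Benjamini-Hochberg adjustment. Confidence intervals are at the 95% level. The steps were tested on simulated data. Isozyme ratios were compared by an exact permutation test. Positions, exon lengths and pseudogenes came from GENCODE M21, to which 97.3% of gene names matched, and promoter windows from RefSeq. As the deposited values are not raw counts, limma was the main test, as planned for that case. Count tests on recovered whole reads, planned as alternatives, were not run because the recovery did not pass the check of units.

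The pathway genes, the wider list, the markers and the tests were chosen with earlier results of these data known. Values in every sample were given for Hif1a, for the 4 genes of largest change that passed in each role and for the most abundant gene per length, and up to 3 genes per direction and role were named from the wider list among those that passed. A gene that this rule named and some of the markers are not reported here. Ogdh, G6pdx, Sdhd, Slc2a1, Slc2a3, Myc, Dld, Pdhx, Rpia, Rpe, Slc16a3 and Slc2a8 were added after their values were seen. Other settings tried were log2(value + 0.1), dropping the filter or raising it to 1 CPM, scaling to equal totals, limma-voom, a block for the replicate number, a spline correction for GC content and length, both together, and the omission of each sample.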

Additional observations from a re-analysis of the deposited data

How the results depend on the processing

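The number of pathway genes that passed was 20 to 25 over all alternatives, and 19 of the 21 calls were kept in each of them. The exceptions were Pgk1 and Pgd, as given above, and no gene that passed changed its sign. With equal totals, 10 pathway genes were higher and 14 lower, 13 genes of the wider list were higher, and the median log2 fold change was −0.048 for the pathway genes and 0.051 for all genes, of which 3487 were higher and 2016 lower (2576 and 2731 with the size factors of the authors). A filter of 1 CPM gave a median of −0.0036 over all genes. Under equal totals the log2 fold change turned its sign for Pfkp (0.012), Aldoc (0.042) and Pdhb (0.033), and after correction for GC content and length, with or without the block, for Gapdh (−0.0038). None of these passed with the settings reported. Of the genes that did not pass there, G6pdx and Sucla2 passed after that correction (adjusted p of 0.0415 and 0.0388), Dlat with the block (0.0407) and Pfkp with both together (0.0476). In the wider list, Vhl did not pass with limma-voom (0.0521) or the correction (0.0837), nor did Dld (0.0882) and Sdhd (0.0587) after the correction. With 1 sample omitted at a time, the median of the pathway genes ran from −0.13 to −0.038, the higher genes of the wider list numbered 5 to 8, and the log2 fold changes ran from −0.16 to 0.28 for Aldoc, −0.026 to 0.021 for Tpi1, −0.011 to 0.037 for Gapdh, −0.018 to 0.059 for Eno3, −0.038 to 0.016 for Pdhb and −0.17 to 0.020 for Idh2. The causes were not tested.

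Whether the replicate numbers pair the samples was not settled. The correlations of deviations between WT and cKO samples of the same number were −0.024, 0.12 and 0.065 over 11055 genes. Between samples of different number they ran from −0.11 to 0.048. WT samples 2 and 3 correlated best with the cKO sample of their own number, but WT sample 1 correlated best with cKO sample 3. With the replicate number as a block, 22 pathway genes, 31 genes of the wider list and 5543 of all genes passed. Count models (edgeR with TMM factors, DESeq2) were not run. With 3 samples per genotype the spread of single genes is poorly known. Aldoc had the fewest counts of the 37 genes.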
